A study of Saccharomyces cerevisiae with 24 samples.

Results

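The genes described here are GCN4 and 45 genes listed with amino acid synthesis, among them YGL117W, to which no pathway was assigned. They are 46 of the 6157 features in the count table. They were taken by systematic name: 7 genes of arginine synthesis, 4 of histidine, 6 of lysine, 10 of branched-chain (leucine, isoleucine and valine), 10 of aromatic, 5 of threonine and 2 of asparagine synthesis, GCN4, and YGL117W. LYS2, LEU2, HIS3 and TRP1 were left out because the strains carry them as markers. All 46 genes passed the filter on low counts, which kept 5698 features. The rule used no measured value, but the genes were chosen with earlier results of these data known. The counts below are therefore descriptive.

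Gcn4 is the transcription factor through which budding yeast raises the genes of many amino acid synthesis pathways together when amino acids run short. Its amount is set mainly at translation, by short open reading frames in the leader of its mRNA, and by fast degradation of the protein, so its mRNA level does not give the amount of protein. Cells in sporulation medium have no external nitrogen source and make new proteins for meiosis largely from amino acids released inside the cell. Pho92 is the YTH-domain protein that binds N6-methyladenosine in mRNA during yeast meiosis.

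The study sequenced polyadenylated RNA from 24 samples of budding yeast, 3 in each of 8 strain groups. All strains were MATa/alpha diploids with the markers ura3, lys2 and ho::LYS2, and with trp1::hisG, his3::hisG and leu2::hisG. Cultures were kept at 30 °C in acetate sporulation medium and received 50 µM copper sulfate 3 h after transfer, and the time of collection after that is not given in the sources used here. In 5 groups the native PHO92 was replaced by a hygromycin marker, and an HA-tagged mutant PHO92 under the copper-inducible CUP1 promoter stood at the trp1 locus; the mutants lacked residues 35 to 42 (Δ35–42) or carried L35A, L38P, I39A or W177A. CUP1-PHO92 had the same construct with wild-type Pho92. The remaining groups were the PHO92 deletion without a construct (pho92Δ) and the wild type with its native gene (WT). Nothing in the labels says how many independent isolates each group represents, so p-values measure the spread between these samples, which may be technical.

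Levels are CPM, that is counts divided by library sizes that TMM factors had adjusted. Differences are log2 ratios of the first-named group over the second, from edgeR's quasi-likelihood test, with their standard errors (SE). A gene is called where its p, adjusted by Benjamini-Hochberg over the 5698 features, is under 0.05. Libraries held 16108079 to 36733806 counts. PHO92 was listed at 0.0381 to 0.753 CPM in pho92Δ, at 7571 to 16420 CPM in the CUP1 strains and at 803.7 to 924.4 CPM in WT. Header lines put L38P replicate 2 and W177A replicate 1 in a batch named B and all others in batch A. They also give W177A the strain number of CUP1-PHO92, 10829, and the genotype label of I39A reads L39A; groups here follow the titles. W177A replicate 1, the deepest library, stood apart from replicates 2 and 3 in many of these genes. Because of this, W177A results are given with and without it. MFA1, which MATa haploids express, averaged at most 0.354 CPM in any group, and STE4, another gene of haploid cells, averaged 18.8 to 48.7 CPM. Other listed haploid genes differed in both directions between L38P and CUP1-PHO92, with GPA1 higher in L38P (0.75) and MFALPHA1 lower (-1.14).

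Among the 8 groups, 41 of the 46 genes differed somewhere (edgeR F test, adjusted p under 0.05), against 63.2% of all features tested. L38P had the highest group mean for 41 genes, 89.1% of them, whereas it was the highest group for 31.1% of all features. L35A had the lowest mean for 24 genes (52.2%; 17.3% of all features) and CUP1-PHO92 for 10 (21.7%; 18% of all features). The distance between the highest and the lowest group mean had a median of 1.13 on the log2 scale over the 46 genes and 0.58 over all features. Among the smallest p-values were those of HIS4 (a multifunctional enzyme of histidine synthesis), LEU4 (the main isopropylmalate synthase, first step to leucine), YGL117W and TRP5 (tryptophan synthase). ARG3, LYS4, LYS9, LEU1 and GCN4 were not called.

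**Figure D1:**
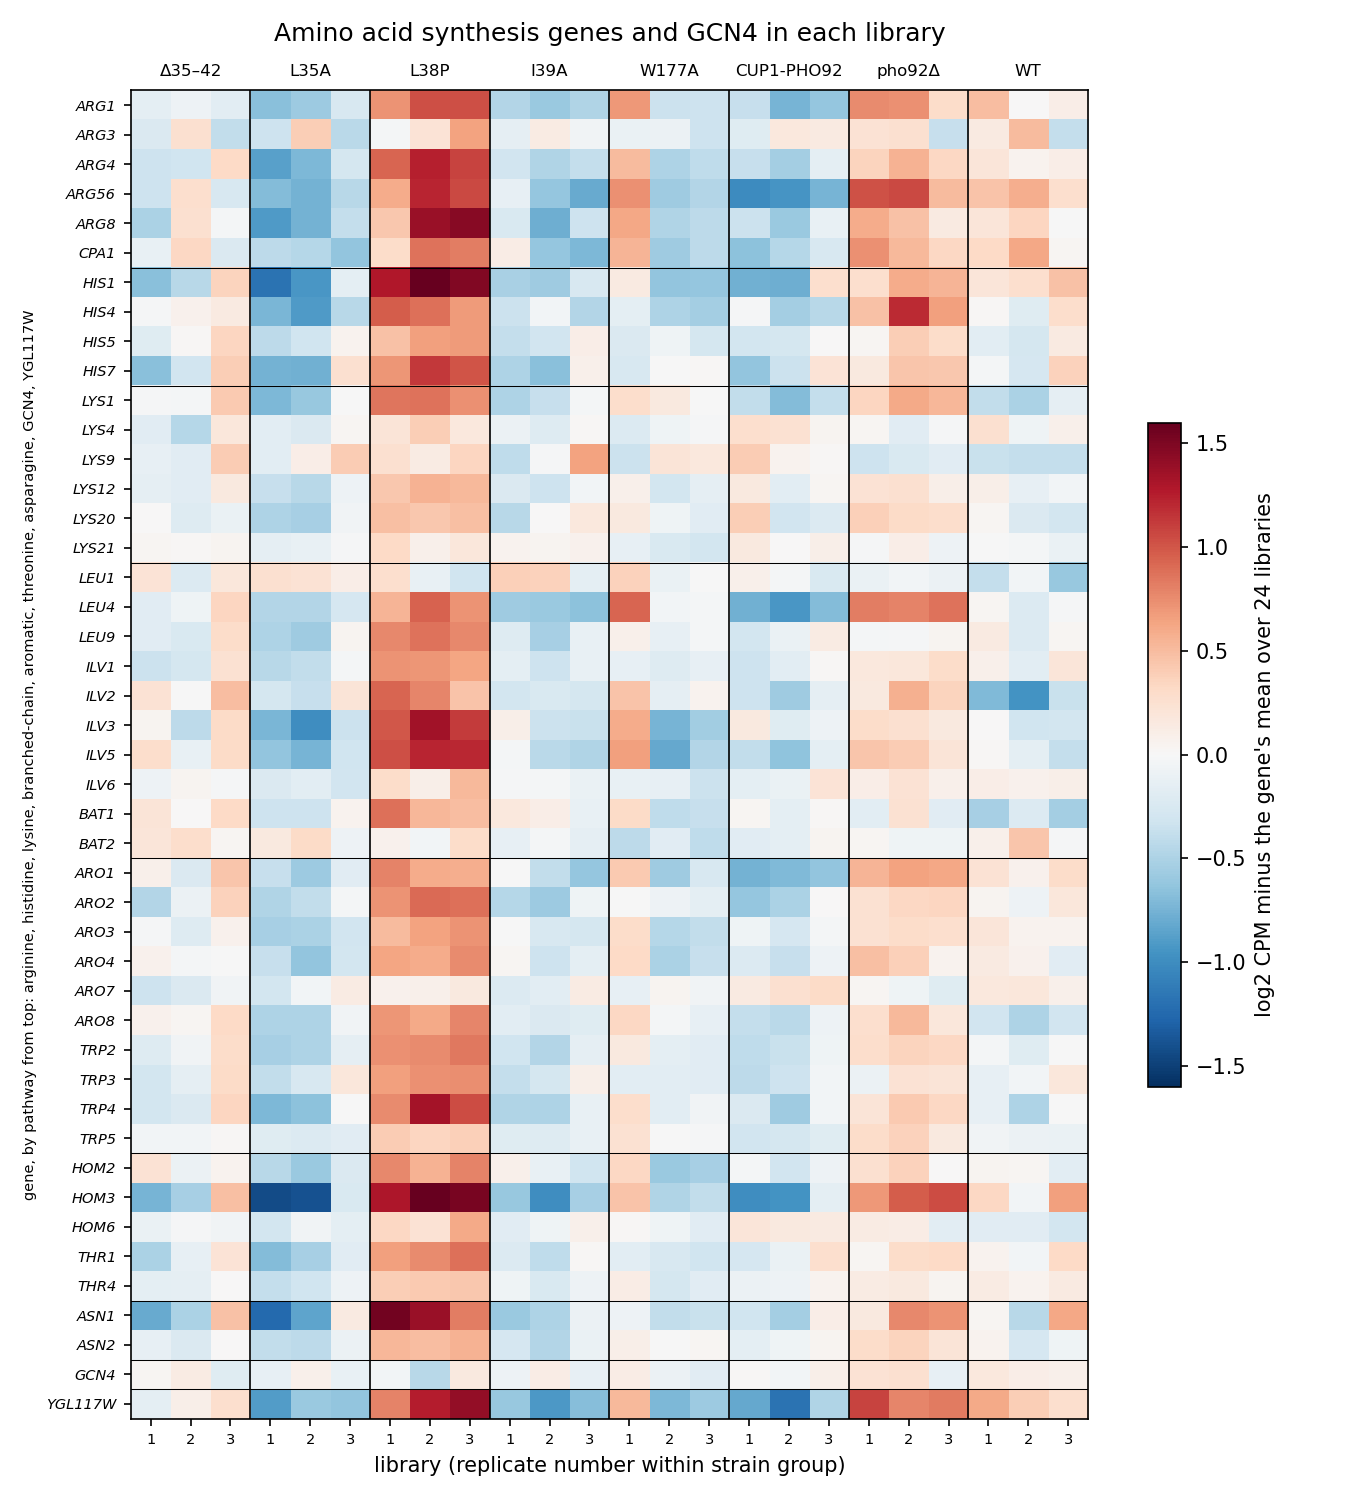
Level of 45 of the genes (down the page, by pathway) in each of the 24 libraries (across, by strain group and replicate number), as log2 CPM minus that gene's mean over all libraries; red is above and blue below the mean. The 3 L38P libraries are red in most pathways, while GCN4 is pale in nearly every library.

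GCN4 (YEL009C) mRNA, the regulator's own transcript, passed the threshold in none of the 13 comparisons made by design, and its p over the 8 groups was 0.725 after adjustment (edgeR). Its mean level was 2403 CPM in Δ35–42, 2330 in L35A, 2267 in L38P, 2375 in I39A, 2331 in W177A, 2458 in CUP1-PHO92, 2634 in pho92Δ and 2622 CPM in WT. The 3 L38P libraries had 2340, 1776 and 2686 CPM, against 2446, 2348 and 2580 CPM in CUP1-PHO92. Among L38P libraries, replicate 2 was below and replicate 3 above all 3 CUP1-PHO92 libraries, so the groups overlapped. For L38P against CUP1-PHO92 the log2 ratio was -0.12, with a 95% interval from -0.41 to 0.17.

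Among 16 genes that act on Gcn4 synthesis or stability, most of which are translation initiation factors and their regulators, 1 was higher and 3 were lower in L38P than in CUP1-PHO92, where 23.1% of all features were called higher and 20.9% lower. PCL5, the cyclin that directs Gcn4 to degradation and is itself a known Gcn4 target, had 235, 225.4 and 281.5 CPM in L38P, against 150.3, 112.7 and 143.4 CPM in CUP1-PHO92. All 3 L38P libraries were above the CUP1-PHO92 libraries, and the log2 ratio was 0.87 (± 0.154 SE, adjusted p 0.000201). SUI2, the subunit of initiation factor eIF2 that the kinase Gcn2 phosphorylates, had 172.3, 133.5 and 138.9 CPM in L38P, against 240.2, 263.7 and 240.7 CPM in CUP1-PHO92. It was lower in every L38P library, with a log2 ratio of -0.74 (± 0.119 SE, adjusted p 8.24e-05). The others were GCD11 at -0.31 (adjusted p 0.00749) and PHO85, the kinase partner of Pcl5, at -0.30 (adjusted p 0.0163). In pho92Δ against WT, none of the 16 passed the threshold in edgeR's test, where 17.7% of all features did, and 3 had an unadjusted p under 0.05.

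The comparison of L38P with CUP1-PHO92 sets strains with a proline at residue 38 of Pho92 against strains with wild-type Pho92. These groups also differed in TRP1 and in markers of meiotic stage, given below. In L38P 37 of the 46 genes were higher and none was lower, where 23.1% of all features were called higher and 20.9% lower, 44% in all. The median log2 ratio was 0.92 over the 46 genes and 0.04 over all features tested. By pathway, 6 of 7 arginine genes, all 4 histidine genes, 3 of 6 lysine genes, 8 of 10 branched-chain genes, 9 of 10 aromatic genes, 4 of 5 threonine genes and both asparagine genes were higher, as was YGL117W. With batch A alone, which leaves out L38P replicate 2, 38 genes were higher, and leaving out any 1 library of either group gave 35 to 37.

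In arginine synthesis, CPA1, the small subunit of carbamoyl phosphate synthetase, had 830.7, 1239 and 1202 CPM in L38P, against 431.2, 497.5 and 567.5 CPM in CUP1-PHO92. All L38P libraries were above, with a log2 ratio of 1.13 (± 0.266 SE, adjusted p 0.00217). ARG56 (YER069W), which makes a precursor protein cleaved into the acetylglutamate kinase and reductase, had 471.9, 723 and 646.1 CPM in L38P and 155, 161.8 and 186.4 CPM in CUP1-PHO92. L38P was higher in every library (log2 ratio 1.87 ± 0.281 SE, adjusted p 4.6e-05). ARG1 (argininosuccinate synthetase), ARG4 (argininosuccinate lyase) and ARG8 (acetylornithine aminotransferase) were higher by 1.501, 1.441 and 1.498. ARG3, ornithine carbamoyltransferase, had 155.5, 185.1 and 248.2 CPM in L38P and 139.3, 178.8 and 176.2 CPM in CUP1-PHO92. These groups overlapped, and ARG3 was the arginine gene not called (log2 ratio 0.25, adjusted p 0.409).

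Threonine and asparagine synthesis both start from aspartate. HOM3 (YER052C), the aspartate kinase that opens the threonine branch, had 174.1, 290.5 and 202.1 CPM in L38P, against 35.48, 36.49 and 63.75 CPM in CUP1-PHO92. All 3 L38P libraries lay above all 3 CUP1-PHO92 libraries, and the log2 ratio was 2.30 (± 0.368 SE, adjusted p 8.24e-05). The following enzymes were higher by less: HOM2 (semialdehyde dehydrogenase) by 0.85, THR1 (homoserine kinase) by 0.78 and THR4 (threonine synthase) by 0.45. HOM6, homoserine dehydrogenase, had 185.9, 174 and 225.6 CPM in L38P and 168.7, 164.6 and 163.3 CPM in CUP1-PHO92, with an adjusted p of 0.0589 in edgeR. Its L38P libraries were all above those of CUP1-PHO92, but the gene did not pass the threshold. The asparagine synthetases ASN1 and ASN2 were higher by 1.503 (adjusted p 0.00209) and 0.59 (adjusted p 0.000202).

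YGL117W, which RefSeq lists as ARO5 and describes as responding to GCN4 induction, had 102.1, 141.1 and 156.4 CPM in L38P, against 33.39, 26.07 and 42.24 CPM in CUP1-PHO92. The groups were far apart, with a log2 ratio of 1.97 (± 0.255 SE, adjusted p 1.42e-05). In the aromatic pathway, ARO1, the multifunctional enzyme of the shared chorismate route, was higher by 1.36 and ARO2, chorismate synthase, by 1.18. From chorismate the route divides. The genes of the tryptophan side were called: TRP2 (anthranilate synthase) at 1.05, TRP4 (phosphoribosyltransferase) at 1.32, TRP3 at 0.96 and TRP5 at 0.64. ARO7, chorismate mutase, which opens the side to phenylalanine and tyrosine, had 35.95, 36.18 and 38.05 CPM in L38P and 37.63, 40.84 and 42.14 CPM in CUP1-PHO92. The groups overlapped, and its log2 ratio was -0.13 (adjusted p 0.357). ARO8, the aromatic aminotransferase, was higher by 0.99.

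All 4 histidine genes of the 46 were called, but the 46 do not hold the whole pathway. Outside them, HIS2 averaged 71.98 CPM in L38P and 63.16 CPM in CUP1-PHO92. HIS6 averaged 26.36 CPM in L38P and 28.46 CPM in CUP1-PHO92. HIS1 (YER055C), whose enzyme takes the first step, had 101.7, 131.6 and 117.1 CPM in L38P, against 24.61, 24.33 and 50.33 CPM in CUP1-PHO92. All L38P libraries were above, with a log2 ratio of 1.82 (± 0.307 SE, adjusted p 0.000128). HIS4 and HIS7 (imidazole glycerol phosphate synthase) were each higher by 1.17, and HIS5 (histidinol-phosphate aminotransferase) by 0.78. In lysine synthesis the last enzyme, saccharopine dehydrogenase LYS1, was higher by 1.302 (± 0.173 SE, adjusted p 1.71e-05). LYS12 (homoisocitrate dehydrogenase) was higher by 0.49 and LYS20 by 0.47. LYS4 (homoaconitase) at 0.07, LYS9, the other saccharopine dehydrogenase, at 0.08 and LYS21 at 0.11 did not pass the threshold.

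Among branched-chain genes, LEU4 (YNL104C) had 1114, 1470 and 1256 CPM in L38P, against 449.3, 400 and 472.7 CPM in CUP1-PHO92, a log2 ratio of 1.54 (± 0.196 SE, adjusted p 1.29e-05). ILV5, the reductoisomerase of isoleucine and valine synthesis, had 2771, 3149 and 3134 CPM in L38P and 1030, 868.6 and 1220 CPM in CUP1-PHO92. It was higher by the same 1.54 (± 0.261 SE, adjusted p 0.000136), and the groups of both genes were apart. ILV2, the catalytic subunit of acetolactate synthase, was higher by 1.07 and its regulatory subunit ILV6 by 0.32, although the ILV6 libraries of the groups overlapped. ILV1 (threonine deaminase) and ILV3 (dihydroxyacid dehydratase) were higher by 0.84 and 1.19. LEU1, isopropylmalate isomerase, had 8797, 6749 and 5866 CPM in L38P and 7755, 7188 and 6206 CPM in CUP1-PHO92. These ranges overlapped, with a log2 ratio of 0.02 (95% interval -0.36 to 0.40).

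Several steps have a pair of isozymes, whose genes are similar enough that the counting may have shared reads between them, so their split is uncertain. In L38P against CUP1-PHO92 the homocitrate synthases gave 0.47 for LYS20 (called) and 0.11 for LYS21 (not called). The branched-chain aminotransferases gave 0.67 for BAT1, the mitochondrial form (called), and 0.21 for BAT2, the cytosolic form (not called). For isopropylmalate synthase the values were 1.54 for LEU4 and 0.88 for LEU9, and for the first aromatic enzyme 0.75 for ARO3 and 0.88 for ARO4, all called. The differences within these pairs were not tested.

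**Figure D2:**
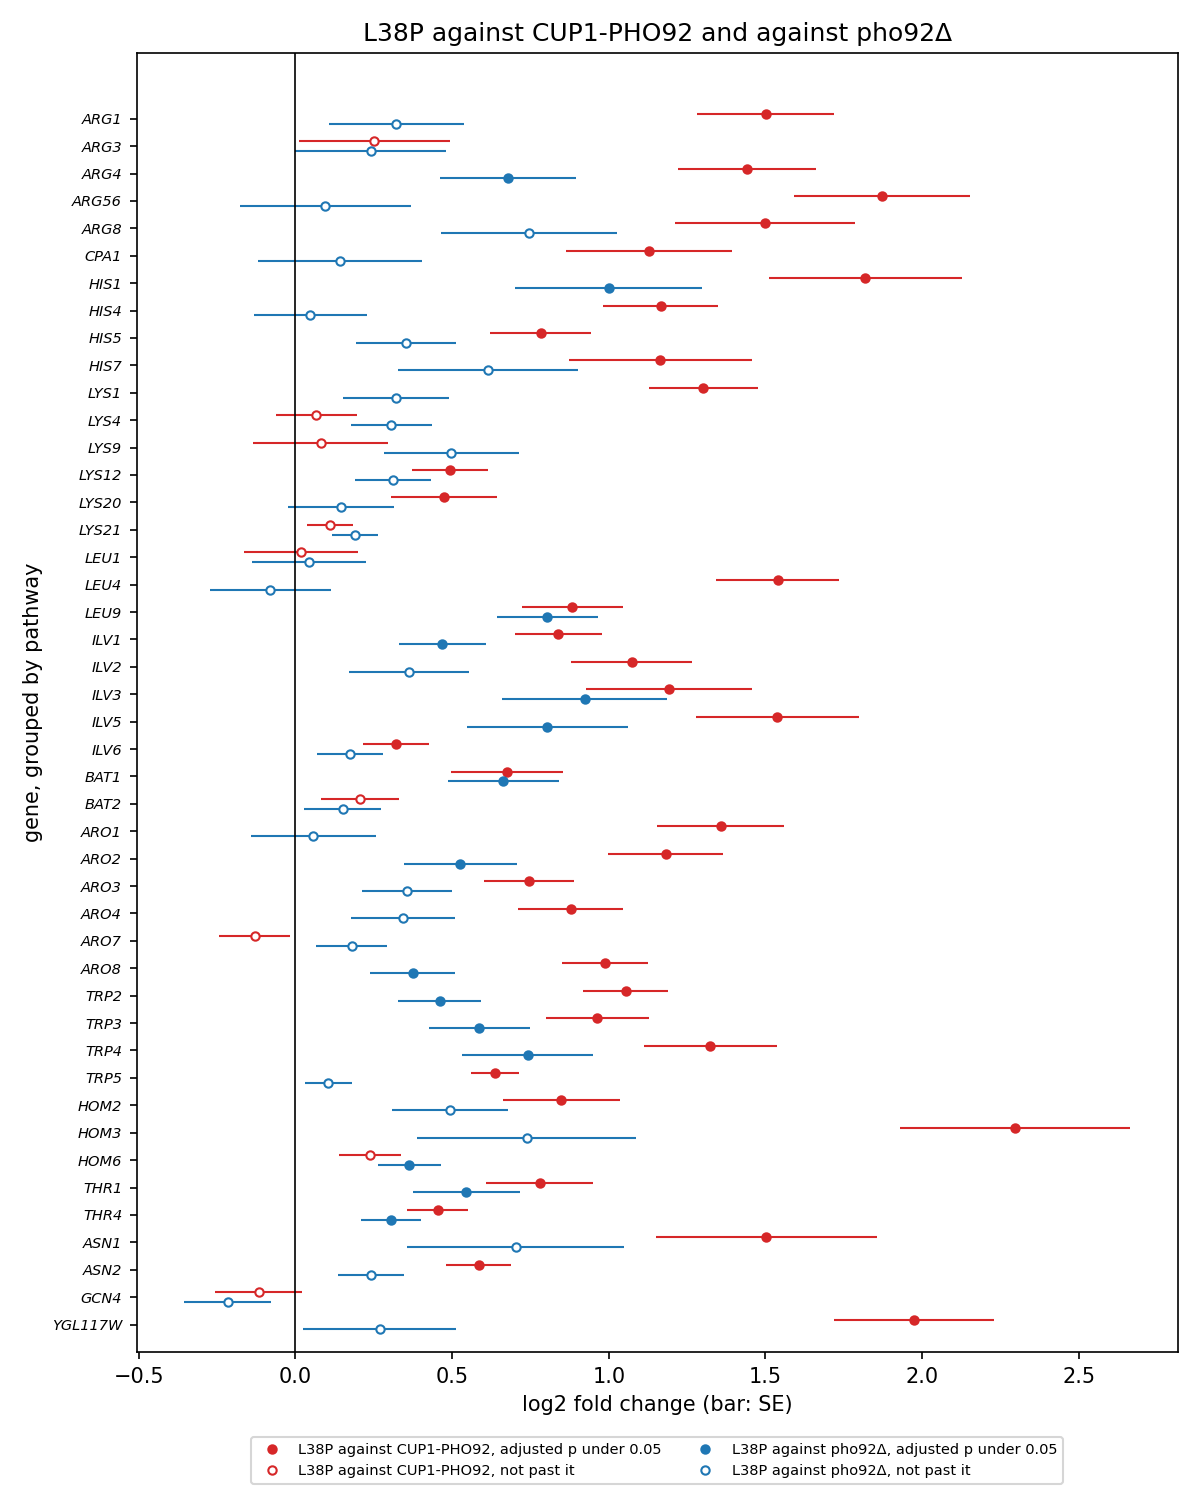
Log2 ratio (horizontal axis; bars are SE) of 45 of the genes in L38P against CUP1-PHO92 (red) and in L38P against pho92Δ (blue), with filled points at an adjusted p under 0.05. Most red points lie right of the blue ones, and HOM3 (2.30) lies farthest right.

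Markers of meiotic stage moved with L38P. The summed level of 8 middle meiotic genes was 104.4 to 511.6 CPM in L38P, against 1336 to 4531 CPM in CUP1-PHO92, and all 8 were lower in L38P. The sum of 8 early meiotic genes was 5707 to 9105 CPM in L38P and 13580 to 16120 CPM in CUP1-PHO92, again with all 8 lower. TRP1, at the integration site, averaged 26.6 CPM in L38P and 7.56 CPM in CUP1-PHO92. It averaged 21.7 CPM in pho92Δ and 18.2 CPM in WT, which carry no construct there, so CUP1-PHO92 was farther from them. In the other construct strains TRP1 averaged 8.83 CPM in I39A, 11.05 in Δ35–42, 16.25 in L35A and 23.75 CPM in W177A. Against CUP1-PHO92 it was called higher in L35A (1.105, adjusted p 0.00125 in edgeR) and W177A (1.66, adjusted p 1.34e-05). It was not called in Δ35–42 or I39A. The part of these differences in the amino acid gene levels was not tested. In whole cultures, fewer cells of one stage and less RNA per cell cannot be told apart.

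Other genes of the same metabolism were listed alongside the 46. Of 26 further synthesis genes, 11 were higher and 3 lower in L38P than in CUP1-PHO92, beside 23.1% higher and 20.9% lower over all features. Their median log2 ratio was 0.22. The largest differences were in SHM2 (serine hydroxymethyltransferase, 1.36), ORT1 (the mitochondrial ornithine transporter, 1.13), ARG7 (ornithine acetyltransferase, 0.96) and ALT1 (alanine transaminase, 0.90). Also listed were 9 regulators, some of which act on more than 1 pathway. Of these, LYS14 (activator of lysine genes, 0.68), BAS1 (activator of histidine and purine genes, 0.59) and ARG80 (part of the arginine-responsive repressor, 0.54) were higher. ARG82, which that repressor needs, was lower at -0.93. CAR1, the arginase that breaks arginine down, had 2162, 1342 and 1798 CPM in L38P, against 3052, 2889 and 2818 CPM in CUP1-PHO92. It was lower in every L38P library (log2 ratio -0.72 ± 0.129 SE, adjusted p 0.000203), the direction opposite to 6 of the 7 arginine synthesis genes. Against pho92Δ, however, CAR1 was higher in L38P (0.35, adjusted p 0.0444 in edgeR). Its mean was 2920 CPM in CUP1-PHO92, 1767 in L38P, 1673 in WT and 1385 CPM in pho92Δ. CAR2, the next enzyme of arginine breakdown, was not called.

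Against pho92Δ, which has no Pho92 at all, L38P had 15 of the 46 genes higher and none lower, where 29.4% of all features were called, 15.3% higher and 14.1% lower. Their log2 ratios had a median of 0.35 over the 46 genes and 0.02 over all features. HIS1 had 101.7, 131.6 and 117.1 CPM in L38P, against 50.36, 63.53 and 61.33 CPM in pho92Δ, a log2 ratio of 1.00 (± 0.299 SE, adjusted p 0.0166). ILV3 had 1022, 1294 and 1112 CPM in L38P and 627.4, 610.4 and 570.6 CPM in pho92Δ (0.92 ± 0.263 SE, adjusted p 0.0132). In both genes every L38P library was the higher. LEU9 and ILV5 were each higher by 0.80, with adjusted p-values of 0.00102 and 0.0241. Arginine genes other than ARG4 were not called here, with ARG56 at 0.10. LEU4 was at -0.08, HIS4 at 0.05 and GCN4 at -0.22 (adjusted p 0.251). The count was sensitive to single libraries: without L38P replicate 2 or pho92Δ replicate 1 it was 6, without L38P replicate 3 it was 7 and without pho92Δ replicate 3 it was 9. HIS1 lost its call without L38P replicate 2 or pho92Δ replicate 1, ILV3 without L38P replicate 2, and ILV5 with any library but L38P replicate 1 left out, while LEU9 kept its call each time. All 8 early meiotic genes were again lower in L38P, and the middle meiotic sum was 104.4 to 511.6 CPM in L38P and 537.5 to 879.7 CPM in pho92Δ.

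A comparison of L38P with Δ35–42 was added after these values had been seen, since Δ35–42 removes residue 38 together with its neighbours. Of the 46 genes, 38 were higher in L38P and none lower, where 36.3% of all features were called, 19.4% higher and 16.9% lower. Over the 46 genes the median was 0.67, against 0.02 over all features. HOM3 had 174.1, 290.5 and 202.1 CPM in L38P, against 42.12, 48.9 and 98.94 CPM in Δ35–42. Its Δ35–42 libraries were spread over more than a factor of 2 but stayed below those of L38P (1.81 ± 0.360 SE, adjusted p 0.00102). HIS1, ASN1 and ARG8 were higher by 1.66, 1.45 and 1.22. Every aromatic, histidine, threonine and asparagine gene was called, ARO7 and HOM6 included. GCN4 was at -0.08 (adjusted p 0.666). Stage markers moved here too: all 8 early and 6 of 8 middle meiotic genes were lower in L38P. The early sum was 5707 to 9105 CPM in L38P and 12340 to 14420 CPM in Δ35–42, and the middle sum 104.4 to 511.6 CPM in L38P and 670.8 to 1752 CPM in Δ35–42. Their part in the result was not tested.

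**Figure D3:**
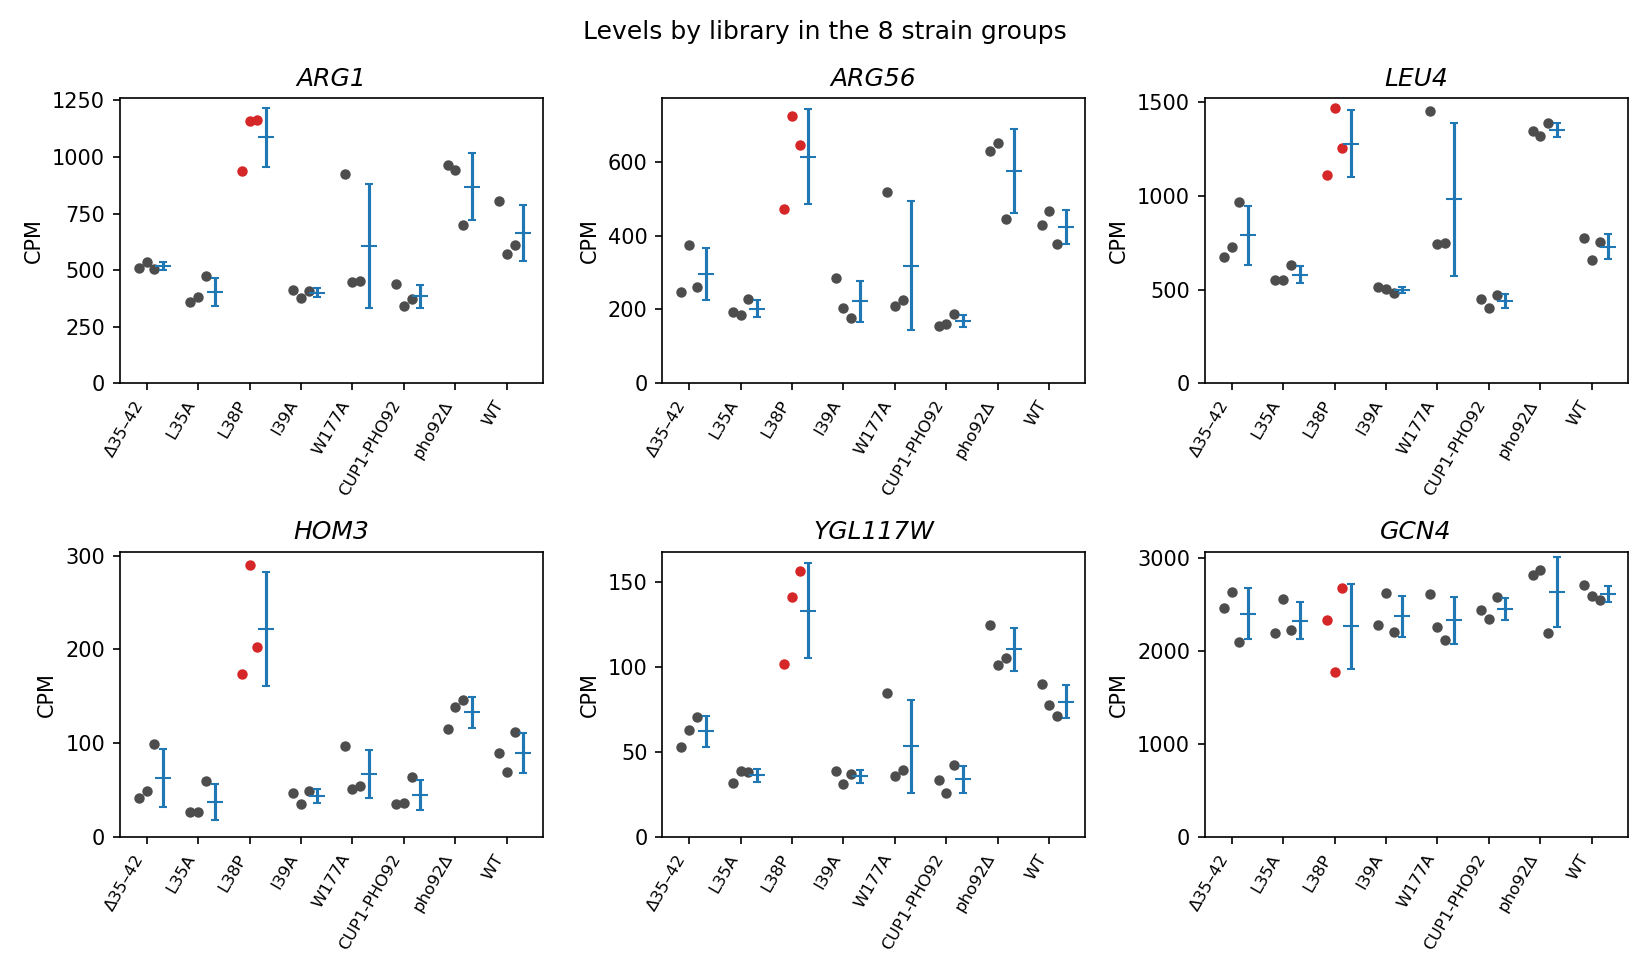
CPM of ARG1, ARG56, LEU4, HOM3, YGL117W and GCN4 in each library (points; L38P in red) by strain group, with the group mean and SD beside them (blue; n = 3). The first 5 genes are high in L38P and pho92Δ and low in CUP1-PHO92, L35A and I39A, whereas GCN4 lies between 1776 and 2876 CPM in all libraries.

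The comparison of pho92Δ with WT addresses loss of the native gene. In pho92Δ 8 of the 46 genes were higher and none was lower, with 17.7% of all features called, 8.18% higher and 9.48% lower. The median log2 ratio was 0.30 over the 46 genes and 0.003 over all features. ILV2 had 773.7, 1029 and 887.8 CPM in pho92Δ, against 425.7, 356.3 and 539 CPM in WT, a log2 ratio of 1.03 (± 0.192 SE, adjusted p 0.00195). LEU4 had 1349, 1319 and 1391 CPM in pho92Δ and 778.3, 656.4 and 755 CPM in WT (0.89 ± 0.193 SE, adjusted p 0.00507). LYS1 had 70.01, 84.39 and 79.98 CPM in pho92Δ and 41.85, 38.74 and 49.96 CPM in WT (0.84 ± 0.171 SE, adjusted p 0.00372). In these genes the groups were apart, with pho92Δ above.

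HIS4 had 171.6, 283 and 195.3 CPM in pho92Δ and 126.2, 109 and 150.3 CPM in WT (0.75 ± 0.182 SE, adjusted p 0.00884). Its adjusted p was 0.0655 without WT replicate 2 and 0.0591 without pho92Δ replicate 2. The other genes called were ARO8, TRP2, TRP5 and ASN2. No arginine gene was called, with ARG56 at 0.44 (adjusted p 0.295). GCN4 was at 0.007, with a 95% interval from -0.28 to 0.30. WT replicate 2 stood apart in its middle meiotic genes, with a sum of 13060 CPM where the other WT libraries had 2403 and 3207 CPM, and all 8 of these genes were lower in pho92Δ, with sums of 537.5 to 879.7 CPM, than in WT. Without it, 5 of the 46 genes were called.

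CUP1-PHO92 against WT compares copper-driven with native PHO92. In CUP1-PHO92 1 gene was higher and 6 were lower, with 6.93% of all features called, 3.93% higher and 3% lower. ARG56 had 155, 161.8 and 186.4 CPM in CUP1-PHO92, against 428.9, 467.5 and 376.2 CPM in WT, a log2 ratio of -1.34 (± 0.277 SE, adjusted p 0.00568). YGL117W had 33.39, 26.07 and 42.24 CPM in CUP1-PHO92 and 90.35, 77.69 and 71.04 CPM in WT (-1.23 ± 0.251 SE, adjusted p 0.00531). In both genes every CUP1-PHO92 library was below every WT library, but YGL117W lost its call (adjusted p 0.0576) when the 6 libraries compared were fitted alone in edgeR. ARG1 was also lower, at -0.79, as were ARO1 (-0.90, adjusted p 0.0102) and LEU4 (-0.73), and HOM6 was higher by 0.38. The median over the 46 genes was -0.16.

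CAR1 was higher by 0.80 in CUP1-PHO92 than in WT (± 0.129 SE, adjusted p 0.00124), with 3052, 2889 and 2818 CPM in CUP1-PHO92 and 1730, 1600 and 1689 CPM in WT. The count of 7 was 4 without WT replicate 1, CUP1-PHO92 replicate 2 or CUP1-PHO92 replicate 3, 3 without WT replicate 3, and 2 without CUP1-PHO92 replicate 1. ARO1 lost its call without CUP1-PHO92 replicate 1. WT carries no construct at trp1, so an effect of that locus cannot be told apart from one of the promoter. GCN4 was at -0.09.

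Set against pho92Δ, CUP1-PHO92 had 25 of the 46 genes lower and 1 higher, with 34.6% of all features called, 16.8% higher and 17.8% lower. Over the 46 genes the median was -0.48, against 0.002 over all features. LEU4 had 449.3, 400 and 472.7 CPM in CUP1-PHO92, against 1349, 1319 and 1391 CPM in pho92Δ, with little spread in either group (-1.62 ± 0.196 SE, adjusted p 7.21e-06). ARG56 and YGL117W were at -1.78 and -1.71, and HIS4 and HOM3 were among the lower genes too. The lower genes included 6 of 7 arginine, 3 of 4 histidine, 8 of 10 aromatic and 4 of 10 branched-chain genes, but 1 of 6 lysine and 1 of 5 threonine genes. ARO7 was the gene that was higher (0.31, adjusted p 0.0389). The middle meiotic sum was 1336 to 4531 CPM in CUP1-PHO92 and 537.5 to 879.7 CPM in pho92Δ. Without CUP1-PHO92 replicate 2, 16 genes were called, all lower. Like WT, pho92Δ carries no construct at trp1, and TRP1 was lower in CUP1-PHO92 (-1.52, adjusted p 2.28e-05 in edgeR). An effect of that locus cannot be told apart from one of Pho92 here. The same holds where mutants are set against pho92Δ. GCN4 was at -0.10.

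**Figure D4:**
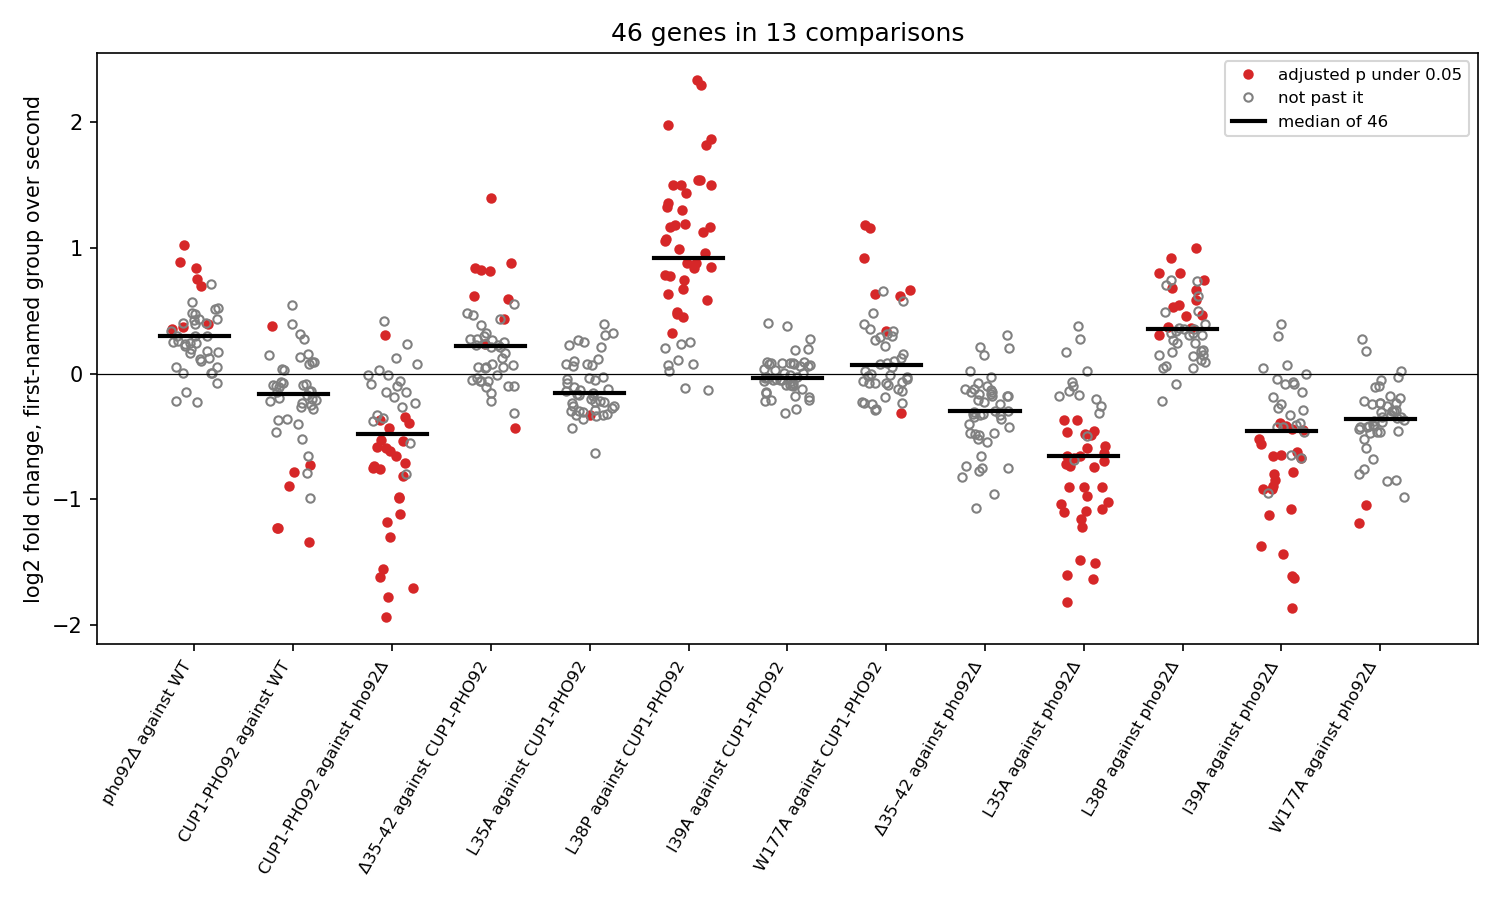
Log2 ratios of the 46 genes (points, 1 per gene; filled red at an adjusted p under 0.05) in the 13 comparisons made by design, first-named group over second, with the median of the 46 as a bar. L38P against CUP1-PHO92 has the highest median (0.92) and L35A against pho92Δ the lowest (-0.66); comparisons that share a group are not independent.

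The mutants other than L38P were compared with CUP1-PHO92 in the same way, and share its 3 libraries. In Δ35–42, 9 genes were higher and 1 lower, with 21.8% of all features called, 11.9% higher and 9.97% lower. LEU4 had 673.3, 727.2 and 967.8 CPM in Δ35–42, against 449.3, 400 and 472.7 CPM in CUP1-PHO92 (0.84 ± 0.193 SE, adjusted p 0.0048). YGL117W had 52.84, 63.31 and 70.96 CPM in Δ35–42 and 33.39, 26.07 and 42.24 CPM in CUP1-PHO92 (0.88 ± 0.250 SE, adjusted p 0.017). In both genes all Δ35–42 libraries were the higher, though LEU4 in replicate 3 stood well above the others. ARO1 followed (0.82, adjusted p 0.00706), with ARG56, LYS1, ILV2, ARO8 and TRP5 also higher. ARO7 was lower, at -0.44. The median over the 46 genes was 0.22. The count of 10 was 4 without CUP1-PHO92 replicate 2, 5 without Δ35–42 replicate 1 or 3, and 6 without CUP1-PHO92 replicate 1. YGL117W lost its call without CUP1-PHO92 replicate 2 or Δ35–42 replicate 3. GCN4 was at -0.03. The middle meiotic sum was 670.8 to 1752 CPM in Δ35–42 and 1336 to 4531 CPM in CUP1-PHO92. None of these 8 genes passed the threshold in edgeR, and 6 had an unadjusted p under 0.05. Their part in the result was not tested.

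L35A had 1 gene called, HOM6, which was lower, where 22.6% of all features were called, 11.3% higher and 11.4% lower. HOM6 had 120.8, 142.5 and 132.8 CPM in L35A, against 168.7, 164.6 and 163.3 CPM in CUP1-PHO92 (-0.33 ± 0.0999 SE, adjusted p 0.0244). All L35A libraries were below, but the call was lost without L35A replicate 1 or without CUP1-PHO92 replicate 1 or 3. The median over the 46 genes was -0.16. Same-numbered libraries of these groups deviated together (r 0.195, 0.403 and 0.181 for replicates 1, 2 and 3), which does not show pairing. With the number as a block, 4 genes were called, all lower. Without L35A replicate 3, 8 genes were lower, and without CUP1-PHO92 replicate 2, 2 were. The shares above are from the fit of all 24 libraries without a block, and those of these other fits are not given. HOM3 illustrates the spread, with 26.34, 26.85 and 59.93 CPM in L35A and 35.48, 36.49 and 63.75 CPM in CUP1-PHO92: replicate 3 was the highest in both groups. GCN4 was at -0.08.

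In I39A none of the 46 genes was called by edgeR or by DESeq2, with 3 at an unadjusted p under 0.05 in edgeR, and 0.0527% of all features were called, all of them higher and 0% lower. The log2 ratios ran from -0.31 to 0.40 with a median of -0.03. HOM3 had 46.47, 35.56 and 48.85 CPM in I39A, against 35.48, 36.49 and 63.75 CPM in CUP1-PHO92, ranges that overlap. LEU4 had 513.6, 505.2 and 482.8 CPM in I39A and 449.3, 400 and 472.7 CPM in CUP1-PHO92. These are apart by a small step, with a log2 ratio of 0.18 (SE 0.192). GCN4 was at -0.05.

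W177A, which alters the m6A-binding YTH domain, had 7 genes higher and 1 lower than CUP1-PHO92, with 27.9% of all features called, 14.9% higher and 13% lower. LEU4 had 1455, 742.7 and 746.9 CPM in W177A, against 449.3, 400 and 472.7 CPM in CUP1-PHO92 (1.16 ± 0.194 SE, adjusted p 0.000259). Every W177A library was above, and replicate 1 was well above the other W177A libraries. ARG56 had 518.9, 209.8 and 225 CPM in W177A and 155, 161.8 and 186.4 CPM in CUP1-PHO92 (0.92 ± 0.275 SE, adjusted p 0.0179), and ARG1 was at 0.66 (adjusted p 0.0279). LYS1, ARO1 and TRP5 were also higher and LYS21 lower. The median over the 46 genes was 0.07.

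Without W177A replicate 1, the batch B library, 4 genes were higher and 4 lower, and 5 of the 8 calls were shared. Shares of all features called in this fit are not given, and those above are from the fit of all 24 libraries. LEU4 (0.76, adjusted p 0.000458), LYS1, TRP5 and LYS21 were among those that kept their calls. ARG56 was then at 0.37 (adjusted p 0.214), ARG1 at 0.22 and ARO1 at 0.29, and ILV3, ARO3 and HOM2 were newly lower. Measured against each gene's mean over all libraries, the median log2 level of the 46 genes was 0.16 in W177A replicate 1 and -0.20 and -0.22 in replicates 2 and 3. The middle meiotic sum was 454.7 CPM in replicate 1 and 1939 and 1410 CPM in replicates 2 and 3, and the early sum 13330 CPM in replicate 1 and 16360 and 16220 CPM in replicates 2 and 3. Their part in the gene levels was not tested. Without CUP1-PHO92 replicate 2, 4 genes were called. ARG1 lost its call without CUP1-PHO92 replicate 2 or 3 and ARG56 without CUP1-PHO92 replicate 1 or 2. GCN4 was at -0.08, and at -0.17 without W177A replicate 1.

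The same mutants were also set against pho92Δ. For L35A 32 of the 46 genes were lower and none higher, with 21% of all features called, 9.86% higher and 11.2% lower. The median log2 ratio was -0.66, against -0.006 over all features. HOM3 had 26.34, 26.85 and 59.93 CPM in L35A, against 114.8, 138.4 and 146.5 CPM in pho92Δ (-1.82 ± 0.363 SE, adjusted p 0.00318). YGL117W and ARG56 were at -1.604 and -1.508, and L35A was the lower in every library of these genes. All aromatic genes but ARO7 and TRP3 were lower, as were 6 of 7 arginine and 4 of 5 threonine genes. The count was 18 without L35A replicate 1 and 15 without L35A replicate 2, the library whose middle meiotic sum, 10230 CPM, was the highest of its group. All 8 middle meiotic genes were higher in L35A than in pho92Δ. GCN4 was at -0.18 (adjusted p 0.378).

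For I39A 23 genes were lower than in pho92Δ and none higher, with 20.8% of all features called, 10.4% higher and 10.5% lower, and a median of -0.46. LEU4 had 513.6, 505.2 and 482.8 CPM in I39A, against 1349, 1319 and 1391 CPM in pho92Δ (-1.43 ± 0.195 SE, adjusted p 0.000115). YGL117W and HOM3 were at -1.63 and -1.61. Every I39A library of these genes was below every pho92Δ library. Without I39A replicate 2 or pho92Δ replicate 2 the count was 13. GCN4 was at -0.15. Of the middle meiotic genes, 7 of 8 were higher in I39A.

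W177A had 2 genes lower than pho92Δ and none higher, with 1.35% of all features called, 0.351% higher and 1% lower. HIS4 had 111.2, 87.96 and 84.9 CPM in W177A, against 171.6, 283 and 195.3 CPM in pho92Δ (-1.19 ± 0.184 SE, adjusted p 0.00375), with W177A below throughout. YGL117W had 84.89, 35.78 and 39.41 CPM in W177A and 124.8, 101.3 and 105.6 CPM in pho92Δ (-1.05 ± 0.247 SE, adjusted p 0.0397). It was also below in every library, with replicate 1 the closest to pho92Δ. Same-numbered libraries of these groups deviated together (r 0.245, 0.254 and 0.347 for replicates 1, 2 and 3), which does not show pairing. With the replicate number as a block, 5 genes were called. Without W177A replicate 1, 21 genes were lower, ARG56 among them (-1.42, adjusted p 0.000812). The 1.35% above is from the fit of all 24 libraries. The share of all features called in the fit without replicate 1 is not given, so the 21 cannot be set against it. Without W177A replicate 2 no gene was called, and without W177A replicate 3 or any 1 of the pho92Δ libraries 1 gene was called. YGL117W lost its call in each of these 5 cases, and HIS4 without W177A replicate 2. GCN4 was at -0.18.

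In Δ35–42 none of the 46 genes passed the threshold against pho92Δ, with 0.105% of all features called, 0.0527% in each direction. In edgeR, 18 had an unadjusted p under 0.05, and DESeq2 called 6, all lower. Over the 46 genes the median was -0.30. HOM3 had 42.12, 48.9 and 98.94 CPM in Δ35–42, against 114.8, 138.4 and 146.5 CPM in pho92Δ (-1.07 ± 0.354 SE, adjusted p 0.252). LEU4 had 673.3, 727.2 and 967.8 CPM in Δ35–42 and 1349, 1319 and 1391 CPM in pho92Δ (-0.78 ± 0.193 SE, adjusted p 0.104). In both genes all Δ35–42 libraries were below, without passing the threshold. GCN4 was at -0.13 (adjusted p 0.818).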

How the data were processed

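Poly(A) RNA was sequenced as directional paired-end reads of 100 bases, per the labels. The authors deposited 1 table of whole-number counts per feature for 24 libraries. STAR 2.7.10a, RSEM 1.3.1 and DESeq2 1.48.1 are named in the submitters' processing notes, without their roles. The genome build and annotation are not given in the sources used here. RSEM estimates counts that need not be whole, and whether the authors rounded them is not stated. Genes with similar copies could share reads.

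The counts were analysed as deposited in edgeR 4.0.16 (R 4.3.3, limma 3.58.1). filterByExpr kept 5698 of 6157 features and removed 459. One quasi-likelihood fit with a mean for each of the 8 groups, TMM scaling and 16 residual degrees of freedom gave all tests, with Benjamini-Hochberg adjustment over all features tested. A count of 3, the detection floor, equals 0.0828 to 0.179 CPM by library, for counting error only. The 46 systematic names matched RefSeq R64, which was used for names alone. No sequences were printed. The code was tested on simulated data. Replicates of a group differed by more than counting noise (chi-square per degree of freedom at least 21.6), so none was counted once for a pair.

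The genes and lists were chosen with earlier results of these data known. Beside GCN4, the genes given with SE and adjusted p were mainly the 4 largest differences past the threshold in each comparison, and others named for their pathway role were picked after their values were seen. Of the 46, 1 gene counts in all totals but is not reported here by name, and figures that label genes leave it out. At most 4 genes were named per further list, save that HIS2, HIS6, TYR1, PHA2 and ARO9 are given as group means for their pathways. L38P against Δ35–42, and its alternatives, were added after values had been seen. Alternatives were RLE scaling, no filter, DESeq2 1.42.0, the replicate number as a block, a covariate for the main axis of variation within groups (35.7% of that variance), batch A alone, the 6 libraries compared alone, and leaving out each library. Replicate numbers come from the titles, and same-numbered samples deviated together (every r over 0.1) in 5 of the 13 comparisons: Δ35–42, L35A and I39A against CUP1-PHO92, and L35A and W177A against pho92Δ. Samples with different numbers were not compared in this way, so the check does not show that samples were paired.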

Additional observations from a re-analysis of the deposited data

How the results depend on the processing

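Of 741 alternative values for the genes named with a test, 689 kept direction and side of the threshold, 38 kept direction without passing it, and 14, all GCN4, turned sign without being called. GCN4 in pho92Δ against WT was -0.00247 with RLE scaling, -0.00122 with the within-group covariate and -0.00248 in DESeq2, and ran from -0.0659 to 0.121 with single libraries left out. It was 0.00719 without the filter in Δ35–42 against CUP1-PHO92 (-0.105 to 0.0556 with libraries left out), and 0.0443 in batch A for L38P against CUP1-PHO92 (-0.257 to 0.0313). For I39A against CUP1-PHO92 it ran from -0.135 to 2.56e-05, and for L38P against Δ35–42 it was 0.0508 in batch A (-0.225 to 0.0637). The cause was not tested.

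Shares of all features called are not given for the alternative fits. Counts of the 46 genes called moved by over 1.5 times as follows, and the cause was not tested. With the 6 compared libraries alone there were 3 for CUP1-PHO92 against WT, 3 for L35A and 3 for W177A against CUP1-PHO92, and 25 for L38P and 0 for W177A against pho92Δ. In that fit HIS4 (adjusted p 0.0664) lost its call in pho92Δ against WT, as did ARG56 (0.0726) and ARG1 (0.115) in W177A against CUP1-PHO92, and HIS4 (0.0772) and YGL117W (0.184) in W177A against pho92Δ. With the covariate there were 9 for L35A and 14 for W177A against CUP1-PHO92, and 6 for Δ35–42, 25 for L38P and 8 for W177A against pho92Δ. In batch A there were 4 for L35A against CUP1-PHO92, and 5 for Δ35–42 and 21 for W177A against pho92Δ. DESeq2 gave 2 for L35A against CUP1-PHO92 and 6 for Δ35–42 against pho92Δ. The replicate block gave 4 for L35A against CUP1-PHO92 and 5 for W177A against pho92Δ. It gave 1 for Δ35–42 against pho92Δ, where not every r of same-numbered samples was over 0.1. In the comparisons where every r was, the block changed no other call among the genes named with a test.

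With single libraries left out, counts ran from 40 to 43 over all groups, 5 to 8 for pho92Δ and 2 to 7 for CUP1-PHO92 against WT, and 16 to 24 for CUP1-PHO92 against pho92Δ. Against CUP1-PHO92 they ran from 4 to 9 for Δ35–42, 0 to 8 for L35A, 35 to 37 for L38P and 4 to 10 for W177A, and I39A stayed at 0. Against pho92Δ they ran from 15 to 35 for L35A, 6 to 15 for L38P, 13 to 20 for I39A and 0 to 21 for W177A, and Δ35–42 stayed at 0. For L38P against Δ35–42 they ran from 29 to 39.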

Other observations

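Purine synthesis, which shares the activator Bas1 with histidine synthesis, was listed as 10 genes outside the amino acid pathways. In L38P against CUP1-PHO92, 6 of the 10 were higher and none lower, where 23.1% of all features were higher, with a median log2 ratio of 0.43. The largest were ADE3 (1.27, a folate enzyme that supplies one-carbon units), ADE17 (1.09, a late step), ADE4 (0.95, the first step) and ADE6 (0.72). ADE3 had 319.4, 321.5 and 290.8 CPM in L38P and 121.8, 110.6 and 152.9 CPM in CUP1-PHO92, so every L38P library was above. In pho92Δ against WT, 5 of the 10 were higher and none lower, where 8.18% of all features were higher.

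CAR1, the arginase, was lower in Δ35–42, L35A and W177A as well than in CUP1-PHO92. It had 2219, 1914 and 1920 CPM in Δ35–42, 2186, 2261 and 2017 in L35A, 1806, 2134 and 2120 in W177A and 3052, 2889 and 2818 CPM in CUP1-PHO92. In I39A, with 2400, 2876 and 2665 CPM, it was not called. Against pho92Δ, CAR1 was called higher in L35A (0.64), I39A (0.93) and W177A (0.54), but not in Δ35–42 (0.54, adjusted p 0.0968 in edgeR).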
